A study of Mus musculus with 24 samples.

Results

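Chemokines and their receptors were taken from the deposited count table by gene symbol: Ccl, Cxcl, Ccr or Cxcr with a number, and Cx3cl1, Cx3cr1, Xcl1, Xcr1 and Ackr1 to Ackr4. This rule found 61 of the 21959 genes: 24 CC ligands, 13 CXC ligands, Cx3cl1 and Xcl1, 18 signalling receptors and 4 atypical receptors. Of these, 40 had enough counts to be tested (27 ligands, 9 signalling receptors and all 4 atypical receptors), and 21 did not.

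Chemokines are small secreted proteins that bind to matrix and to G protein-coupled receptors on leukocytes and direct their migration along a gradient. Inflammatory chemokines such as Ccl2 are induced by cytokines and recruit monocytes, neutrophils or effector T cells, while homeostatic ones such as Cxcl12, Ccl19 and Ccl21a hold cells in marrow, vessels and lymphoid tissue. Atypical receptors bind chemokines without G protein signalling and remove them. In the aortic wall, monocyte entry through Ccr2 and its ligands is a well-known part of aneurysm and dissection models.

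RNA was taken from whole aortas, ascending part to abdominal bifurcation, of male mice in 4 groups: ATAD3A knock-in mice on BAPN (KI-BAPN, 6 libraries), ATAD3A knock-in mice on plain water (KI, 5), wild-type mice on BAPN (WT-BAPN, 7) and wild-type mice on plain water (WT, 6). BAPN (β-aminopropionitrile), an inhibitor of the lysyl oxidases that cross-link elastin and collagen, was drunk at 0.5% (w/v) for 28 days from the age of 3 weeks. No starting age was recorded here for the mice on plain water. The labels give neither the strain nor the promoter or cell type of the knock-in allele. Each library is listed as a sample of its own, and pooling of animals is not mentioned.

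Libraries held 13127645 to 26490651 counts, and the summed level of the 61 genes was 153 to 2366 CPM (counts scaled to a common library size). Atad3a stood at 231 to 1038 CPM in KI-BAPN and 617 to 1629 CPM in KI, against 24.9 to 44.8 CPM in WT-BAPN and 30.2 to 61.4 CPM in WT. The 10 smooth muscle markers summed to 10875 to 41205 CPM in KI-BAPN, 24642 to 56292 CPM in KI, 15810 to 43905 CPM in WT-BAPN and 12949 to 58370 CPM in WT, and none of them was at 0 throughout a group. WT replicate 5 stood apart from the other 23 libraries. Its 10 airway epithelial markers summed to 19761 CPM (0.566 to 217 CPM in the others), its 8 B cell markers to 710 CPM (0.783 to 15.9) and its 10 T cell markers to 296 CPM (0.974 to 26.5). Its 9 skeletal muscle markers summed to 5609 CPM (6.49 to 28.5 in the others) and its 8 cardiac muscle markers to 1493 CPM (11.9 to 283). Results that rest on this library are given with and without it.

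The highest value of a chemokine gene fell mostly in a few libraries. WT replicate 5 held the highest CPM of 17 of the 40 tested genes, KI-BAPN replicates 3 and 6 of 7 each, WT-BAPN replicate 5 of 4 and WT-BAPN replicate 2 of 2. These 5 libraries, picked after the values were seen, held the maximum of 37 of the 40 (92.5%), beside 35.8% of all 14216 tested genes. The other 10 plain-water libraries held the maximum of 1, Ccl27a, in KI replicate 2. All 5 libraries were also among the 8 whose 8 mesothelial markers summed to over 50 CPM: KI-BAPN replicates 2, 3 and 6 (55.2, 172 and 119 CPM), WT-BAPN replicates 2, 5 and 6 (117, 195 and 85.2 CPM) and WT replicates 2 and 5 (92.5 and 801 CPM). No KI library was over that limit. Smooth muscle markers summed to 10875 CPM in KI-BAPN replicate 3, 12949 CPM in WT replicate 5 and 16488 and 17236 CPM in WT-BAPN replicates 5 and 2. These sums lie at the low end of the 10875 to 58370 CPM over all libraries. KI-BAPN replicate 6 had 25247 CPM, and WT-BAPN replicate 6, outside the 5, had 15810 CPM. The part of smooth muscle content in these maxima was not tested. In bulk tissue fewer cells of a type and less RNA per cell cannot be told apart.

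**Figure D1:**
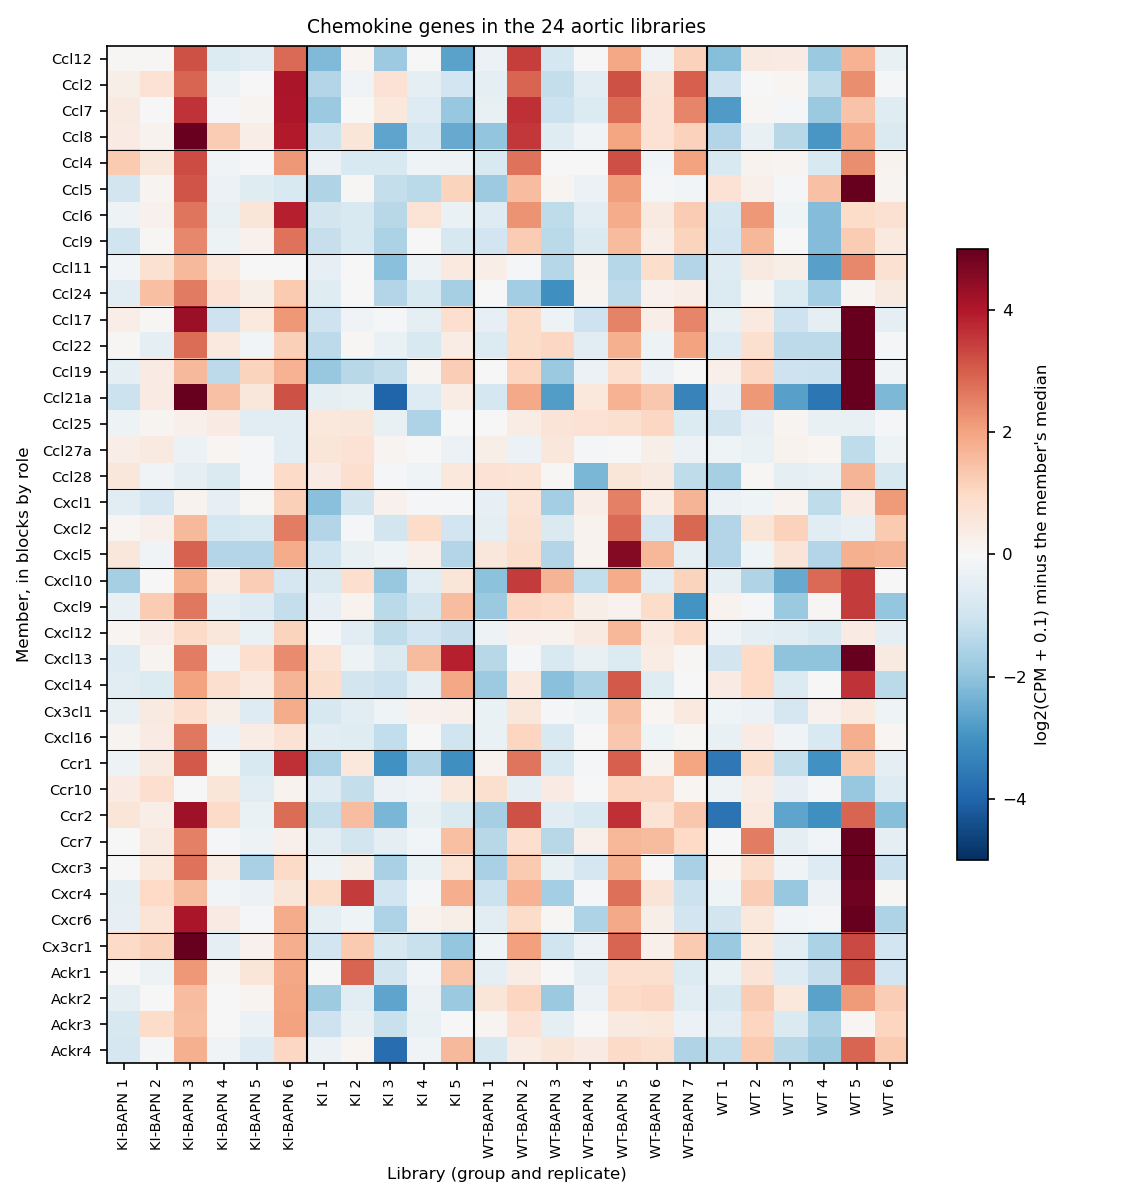
Level of 39 tested members (rows, in blocks by role) in each library (columns, by group), as log2(CPM + 0.1) minus the member's median over the 24 libraries, red above and blue below it. The red columns are KI-BAPN replicates 3 and 6, WT-BAPN replicates 2 and 5 and WT replicate 5, which together held the highest value of 37 of the 40 tested members.

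Per exonic length, Cxcl12 was the most abundant member, with a median of 20.5 RPKM (CPM per 1000 exonic bases) over the 24 libraries. It attracts leukocytes and progenitors through Cxcr4 and is made by stromal and vascular cells. Its scavenging receptor Ackr3 followed with 12.8 RPKM, then the macrophage chemokine Ccl6 with 10.03 RPKM and the lymphatic chemokine Ccl21a with 8.05 RPKM. Ccl27a, Ccl11, Ccl9, Cxcl16, Ccl8 and Cx3cl1 had medians of 3.31 to 6.10 RPKM. The signalling receptors were lower: Cxcr4 led them with a median of 0.848 RPKM, followed by Cx3cr1 with 0.515 RPKM, Ccr2 with 0.406 RPKM and Ccr1 with 0.387 RPKM. A mean misplaces Ccl21a, at 78.5 RPKM over all libraries, since WT replicate 5 alone had 1093 CPM of it.

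**Figure D2:**
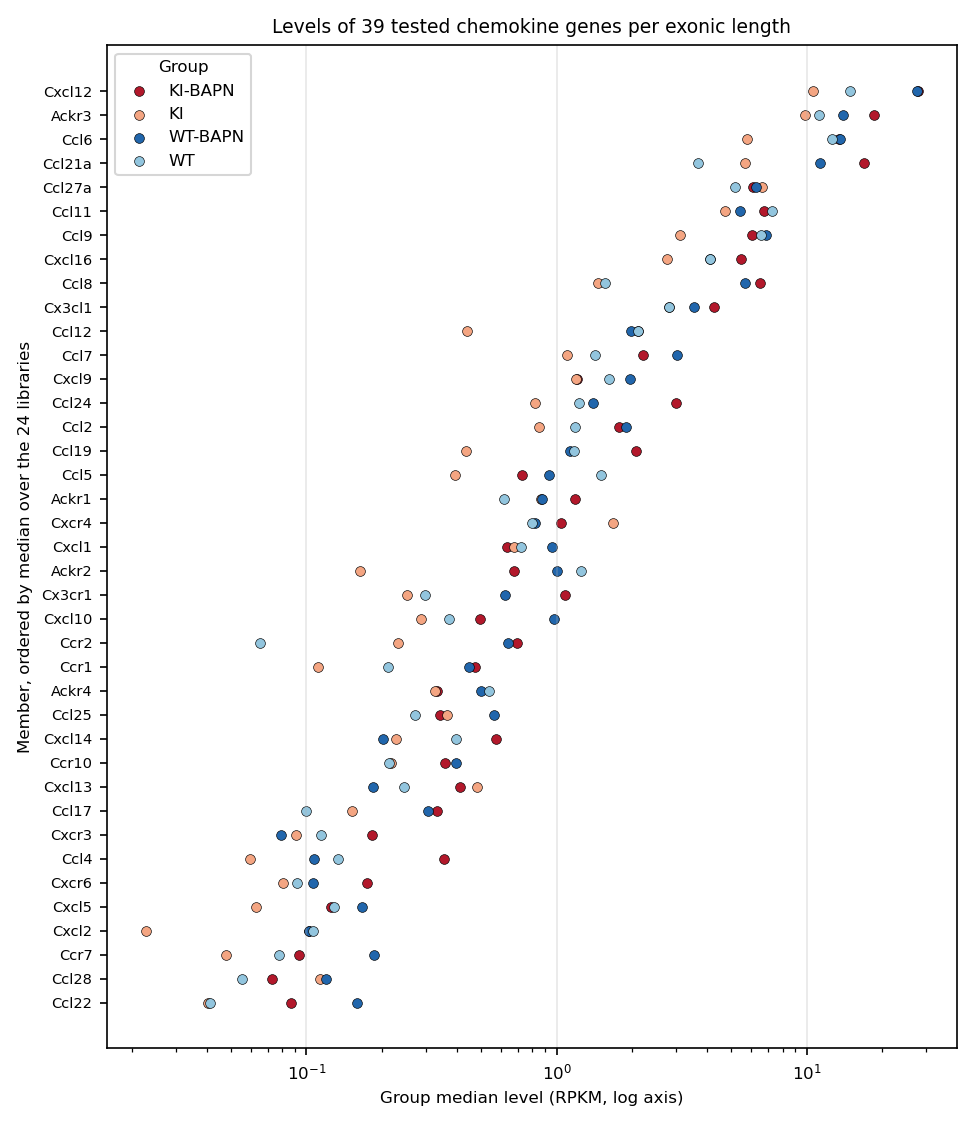
Median level of 39 tested members in KI-BAPN, KI, WT-BAPN and WT libraries, in RPKM on a log axis, ordered by the median over all 24 libraries. Cxcl12 and Ackr3 stand at the top, and the lowest group medians, 0.0227 and 0.0405 RPKM in KI, belong to Cxcl2 and Ccl22.

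The 21 untested genes had 1 to 1037 counts in all libraries together, and 11 of them were highest in WT replicate 5. Most of the 1037 counts of Cxcl17, a mucosal chemokine, came from that library, which had 56.0 CPM of it, while no other WT library was over 0.462 CPM. Cxcr5, the B cell follicle receptor, had 33.9 CPM there and at most 0.462 CPM in any other WT library. Xcl1, the ligand of the dendritic cell receptor Xcr1, had 63 counts in all, and Ccl20, the ligand of Ccr6, had 31 counts with 22 libraries at 0. Counts of near-identical copies are uncertain, since reads they share may have been split or dropped: Ccl21a had 30429 counts, Ccl21b 7 and Ccl21d 1. Of the untested genes, Cxcr5, Xcl1, Cxcl11 and Ccr9 share exonic bases with other genes in the GENCODE M21 annotation. Of the tested genes, Ccl27a, Cxcl16, Ackr1, Cx3cr1, Cxcl10, Ackr4 and Ccl25 do so. Reads from the shared bases may be assigned to either gene. For Ackr1 the other gene, Cadm3, lies on the same strand, as does Gm17200 for Ccr9, so strand information would not separate them.

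Cxcl12 was higher in BAPN libraries of both genotypes and had the smallest p of the members for BAPN averaged over the genotypes. In the deposited table it is ENSMUSG00000061353, on chromosome 6 from 117145496 to 117158328 on the plus strand, in coordinates whose build the table does not state. Its start region is shown because its averaged call held with each library left out: 250 bases before to 50 after the start, chr6:117168285-117168584, plus strand, from RefSeq on GRCm38.p6. It is GC-rich, at 64.7% against a median of 52.7% over 32851 such regions, and holds none of the 4 motifs that capitals mark in the sequences printed further on.
Cxcl12: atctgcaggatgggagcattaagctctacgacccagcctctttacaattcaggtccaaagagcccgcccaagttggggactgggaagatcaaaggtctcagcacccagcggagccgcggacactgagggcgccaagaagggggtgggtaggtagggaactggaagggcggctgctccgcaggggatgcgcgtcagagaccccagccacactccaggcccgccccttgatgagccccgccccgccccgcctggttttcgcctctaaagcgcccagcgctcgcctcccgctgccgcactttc

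Cxcl12 stood at 133 (lowest), 228 (median) and 359 CPM (highest) in KI-BAPN, against 156, 112, 68.7, 86.3 and 74.7 CPM in KI. It stood at 139, 226 and 532 CPM in WT-BAPN, against 98.3, 122 and 223 CPM in WT. In KI-BAPN 5 of 6 libraries were above the highest KI library, in WT-BAPN 4 of 7 were above the highest WT library and all 7 above the WT median, and the groups overlapped in both genotypes. The means were 242 ± 85.9 CPM in KI-BAPN (SD, n = 6) and 99.7 ± 35.8 CPM in KI (SD, n = 5), and 263 ± 132 CPM in WT-BAPN (SD, n = 7) and 137 ± 44.7 CPM in WT (SD, n = 6). Averaged over both genotypes Cxcl12 rose by a log2 change of 1.11 ± 0.22 (SE), with an edgeR adjusted p of 0.0118. With each of the 24 libraries left out in turn it stayed between 0.97 and 1.22, with adjusted p of 0.00915 to 0.0279. Within a genotype the change was 1.28 ± 0.32 in KI (edgeR adjusted p = 0.136) and 0.94 ± 0.29 in WT (0.0581), neither past the threshold of 0.05. Without WT replicate 5 the change in WT was 1.13 with an edgeR adjusted p of 0.0265. Without the 8 libraries over 50 CPM of mesothelial markers the averaged change was 0.89, with an adjusted p of 0.107. The 10 fibroblast markers moved along: they summed to 4812 to 12477 CPM in KI-BAPN and 1610 to 6791 CPM in KI, and to 7063 to 14718 CPM in WT-BAPN and 3158 to 8225 CPM in WT. Their part in the Cxcl12 result was not tested.

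Neither receptor of Cxcl12 passed the test in any comparison. Ackr3 stood at 24.2, 62.1 and 171 CPM in KI-BAPN, against 21.1, 32.9, 19.9, 34.0 and 42.6 CPM in KI, a log2 change of 1.40 ± 0.48 (edgeR adjusted p = 0.298). It stood at 31.2, 46.7 and 71.4 CPM in WT-BAPN, against 14.3, 37.5 and 90.3 CPM in WT. In KI-BAPN 4 of 6 libraries were above the highest KI library, while no WT-BAPN library was above the highest WT library. Cxcr4, the signalling receptor, was highest outside the BAPN groups: 46.8 CPM in WT replicate 5 and 18.2 CPM in KI replicate 2, whose 8 sympathetic neuron markers summed to 1865 CPM, the highest sum of the 24 libraries. In the remaining WT libraries it stood at 0.342 to 3.74 CPM, and in KI-BAPN at 1.11 to 4.85 CPM.

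**Figure D3:**
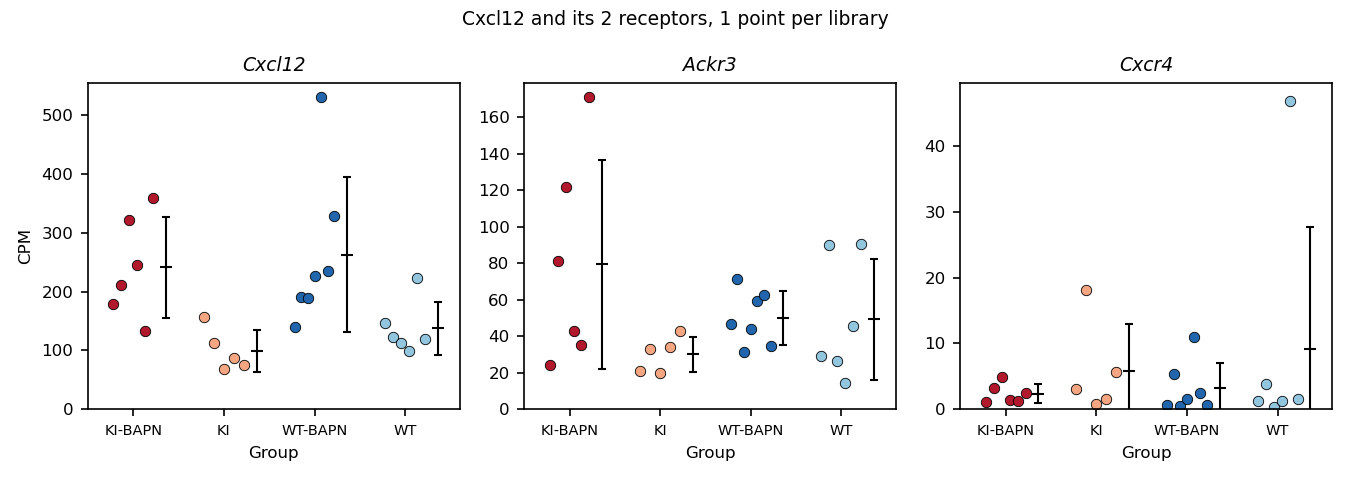
CPM of Cxcl12 and its receptors Ackr3 and Cxcr4, 1 point per library, with the group mean and SD as a bar to the right of the points. For Cxcl12, 5 of 6 KI-BAPN libraries lie above all KI libraries and 4 of 7 WT-BAPN libraries above all WT libraries, and the highest Cxcr4 value is 46.8 CPM in a WT library.

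The genes grouped here as ligands of Ccr2, through which monocytes are drawn out of the blood, form a run on chromosome 11. Receptor use was not tested, and for mouse Ccl8 the grouping is an assumption. In the deposited table Ccl2 begins at 81926397, Ccl7 at 81936538, Ccl12 at 81992671 and Ccl8 at 82006011, all on the plus strand. The eosinophil chemokine Ccl11 lies between Ccl7 and Ccl12. The start regions of Ccl8 and Ccl12 are shown because these neighbours were high in the same libraries, at chr11:82114935-82115234, plus strand, and chr11:82101595-82101894, plus strand, from RefSeq on GRCm38.p6. Capitals mark TATAAA, the AP-1 motif TGANTCA, the interferon-response pair GAAANNGAAA and the NF-κB consensus, each searched on both strands. Both regions hold TATAAA and none of the other 3 motifs.
Ccl8: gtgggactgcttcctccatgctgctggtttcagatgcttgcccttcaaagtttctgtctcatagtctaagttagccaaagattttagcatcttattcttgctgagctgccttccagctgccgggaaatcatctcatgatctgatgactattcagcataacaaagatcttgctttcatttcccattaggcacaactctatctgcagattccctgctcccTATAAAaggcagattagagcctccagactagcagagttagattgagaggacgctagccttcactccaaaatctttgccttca
Ccl12: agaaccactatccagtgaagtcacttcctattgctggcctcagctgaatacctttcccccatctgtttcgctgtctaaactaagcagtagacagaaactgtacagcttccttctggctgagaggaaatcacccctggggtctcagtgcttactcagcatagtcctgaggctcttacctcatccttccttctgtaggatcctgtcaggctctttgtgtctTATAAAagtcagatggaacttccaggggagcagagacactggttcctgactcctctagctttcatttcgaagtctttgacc

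Over 32851 regions of the same length, TATAAA was found in 13.6%, TGANTCA in 7.81%, GAAANNGAAA in 3.44% and the NF-κB consensus in 4.51%. Among 53 start regions matched to 46 of the 61 genes, TATAAA was found in 14, TGANTCA in 9, GAAANNGAAA in 3 and the NF-κB consensus in 10, including Cxcl1, Cxcl2, Cxcl3, Cxcl10, Ccl9 and Ccl20. Such matches describe letters and not binding.

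Ccl8, called MCP-2 and a ligand made by macrophages, stood at 1.96 (lowest), 3.31 (median) and 56.1 CPM (highest) in KI-BAPN, against 0.747, 2.66, 0.188, 0.879 and 0.218 CPM in KI. It stood at 0.362, 2.90 and 21.1 CPM in WT-BAPN, against 0.138, 0.797 and 6.58 CPM in WT. All 6 KI-BAPN libraries were above the KI median and 3 of them above the highest KI library, and 6 of 7 WT-BAPN libraries were above the WT median and 2 above the highest. The high values were 56.1 and 28.5 CPM in KI-BAPN replicates 3 and 6 and 21.1 CPM in WT-BAPN replicate 2. Averaged over both genotypes Ccl8 rose by a log2 change of 2.87 ± 0.78 (SE, edgeR adjusted p = 0.0387). It changed by 4.07 ± 1.21 in KI (0.206) and by 1.68 ± 1.0 in WT (edgeR adjusted p = 0.304).

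Ccl7, or MCP-3, which releases monocytes from marrow, stood at 1.33, 1.78 and 25.0 CPM in KI-BAPN, against 0.314, 1.45, 2.07, 0.879 and 0.305 CPM in KI. It stood at 0.615, 2.42 and 19.2 CPM in WT-BAPN, against 0.113, 1.14 and 4.004 CPM in WT. The 2 highest KI-BAPN libraries and the 3 highest WT-BAPN libraries were above all their plain-water controls, and the rest overlapped with them. Averaged over both genotypes Ccl7 rose by 2.61 ± 0.71 on the log2 scale (SE, edgeR adjusted p = 0.0408). These calls were narrow. Ccl8 was between 2.36 and 3.48 with a library left out, with edgeR adjusted p of 0.0129 to 0.0827, and Ccl7 between 2.23 and 2.96, with 0.0198 to 0.0861. Ccl8 missed the threshold without KI-BAPN replicate 3 or 6, KI replicate 1, 3, 4 or 5, WT-BAPN replicate 2 or 5, or any WT replicate but 5. Ccl7 missed it without the same libraries except KI replicate 3. Without the 8 libraries over 50 CPM of mesothelial markers the averaged changes were 1.60 for Ccl8 (edgeR adjusted p = 0.244) and 1.36 for Ccl7 (0.332), on 3 KI-BAPN, 5 KI, 4 WT-BAPN and 4 WT libraries.

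Ccl2 is the main Ccr2 ligand, and Ccl12 its close relative in mice. Ccl2 stood at 1.13, 2.02 and 24.9 CPM in KI-BAPN, against 0.432, 1.21, 2.31, 0.971 and 0.655 CPM in KI. In WT-BAPN it stood at 0.546, 2.16 and 13.04 CPM, against 0.506, 1.35 and 7.26 CPM in WT, where WT replicate 5 was the highest. Besides KI-BAPN replicates 3 and 6 (10.8 and 24.9 CPM) and WT-BAPN replicates 2 and 5 (10.9 and 13.04 CPM), WT-BAPN replicate 7 was high, at 11.4 CPM, with 1.15 CPM of mesothelial markers. The averaged log2 change of Ccl2 was 2.05 ± 0.66 (edgeR adjusted p = 0.0764), and that of Ccl12 was 2.05 ± 0.68 (0.0877).

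Among receptors of monocytes and macrophages, Ccr2 and Cx3cr1 had their 5 highest values in KI-BAPN replicates 3 and 6, WT-BAPN replicates 2 and 5 and WT replicate 5. Ccr2, which marks inflammatory monocytes, stood at 2.13, 4.67 and 52.7 CPM in KI-BAPN, against 1.10, 8.05, 0.470, 2.04 and 1.57 CPM in KI. It stood at 0.775, 4.32 and 34.7 CPM in WT-BAPN, against 0.113, 0.442 and 20.9 CPM in WT, where the library with 20.9 CPM was again WT replicate 5. All 7 WT-BAPN libraries were above the WT median. Cx3cr1, the fractalkine receptor of resident macrophages and patrolling monocytes, had 98.5 CPM in KI-BAPN replicate 3 and 1.68 to 8.41 CPM in the other KI-BAPN libraries, against 1.14, 5.78, 1.27, 1.02 and 0.524 CPM in KI. Ccr1, a receptor of monocytes and neutrophils, had an averaged log2 change of 2.58 ± 0.78 (edgeR adjusted p = 0.0626).

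Macrophage markers were high in these libraries too. The 14 macrophage markers summed to 285 to 1639 CPM in KI-BAPN and 175 to 332 CPM in KI, and to 194 to 833 CPM in WT-BAPN and 217 to 864 CPM in WT. KI-BAPN replicates 3 and 6 had 1639 and 1072 CPM, WT-BAPN replicates 2 and 5 had 833 and 668 CPM, and WT replicate 5 had 864 CPM, the 5 highest sums of the 24. The 6 monocyte markers summed to 162 to 453 CPM in KI-BAPN, 120 to 246 CPM in KI, 144 to 299 CPM in WT-BAPN and 140 to 289 CPM in WT. For these markers the same 5 libraries were not the 5 highest. KI-BAPN replicates 3 and 6 had 279 and 453 CPM, WT-BAPN replicates 2 and 5 had 299 and 243 CPM, and WT replicate 5 had 276 CPM. WT replicate 2 and KI-BAPN replicate 5, outside the 5, had 289 and 278 CPM. No marker of either list was at 0 throughout a group, and the part of either list in these results was not tested.

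**Figure D4:**
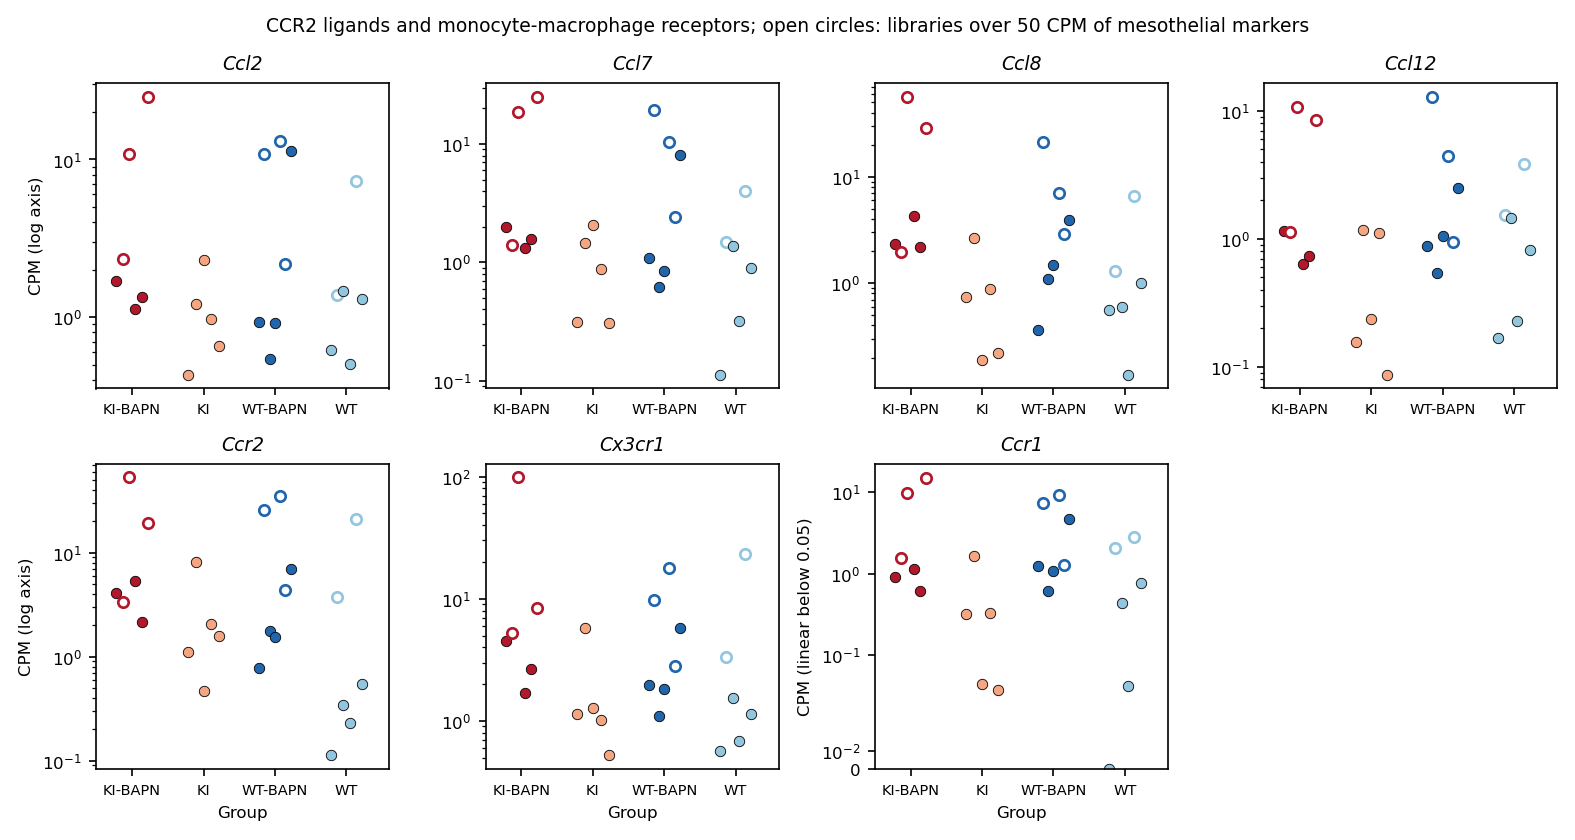
CPM of Ccl2, Ccl7, Ccl8 and Ccl12, grouped here as Ccr2 ligands, and of the receptors Ccr2, Cx3cr1 and Ccr1. Each library is 1 point on log axes (linear below 0.05 CPM for Ccr1, which is 0 in 1 WT library). Open circles mark the 8 libraries over 50 CPM of mesothelial markers. The highest point of each panel is an open circle of a BAPN group, and 1 open WT circle, WT replicate 5, lies above the other WT libraries.

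Of the 40 tested members, 3 passed the test for BAPN averaged over both genotypes, all higher (Cxcl12, Ccl8 and Ccl7). Over all genes 4.14% were called and 1.98% were called higher. The members' median log2 change was 0.69, with 25 of 40 positive, beside a median of -0.02 over all genes. Without WT replicate 5, 11 of 36 members passed, all higher, among them Ccl2, Ccl4, Ccl7, Ccl8, Ccl12, Ccr1, Ccr2, Cx3cr1, Cxcl12 and Cxcl16, beside 8.36% of all genes. In that fit the median was 0.88 with 33 of 36 positive. Ccl8 then had a log2 change of 3.48 (edgeR adjusted p = 0.0129) and Ccr2 of 2.92 (0.0294). Without the 8 libraries over 50 CPM of mesothelial markers 0 of 33 members passed in edgeR, beside 0% of all genes, and the median was 0.34, beside -0.02 over all genes.

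BAPN in KI alone called none of the 40 members, beside 0.0352% of all genes. At an unadjusted p under 0.05 there were 17 members, beside 10.1% of all genes, and DESeq2 called 4 (Ccl8, Ccl24, Cx3cr1 and Cxcl12, all higher), beside 1.42% of all genes, and limma voom 0, beside 0%. The median log2 change of the members was 1.56, with 34 of 40 positive, beside -0.03 over all genes. It was 0.93 with KI-BAPN replicate 3 left out, 1.13 with KI-BAPN replicate 6 left out and 0.37 on the 16 libraries under 50 CPM of mesothelial markers. Ccl4, an inflammatory CC ligand of macrophages and T cells, stood at 0.0493, 0.233 and 1.53 CPM in KI-BAPN, against 0.0393, 0, 0, 0.0463 and 0.0436 CPM in KI. Its log2 change was 3.88 ± 1.33 (edgeR adjusted p = 0.300), with all 5 KI values and the lowest KI-BAPN value below the 0.113 CPM that a count of 0 allows in the deepest of the libraries. Ccl6 stood at 13.7, 24.2 and 267 CPM in KI-BAPN, against 9.47, 10.3, 6.82, 28.5 and 13.9 CPM in KI (log2 change 2.47 ± 0.86, edgeR adjusted p = 0.312), and Ccl9 had a log2 change of 2.12 ± 0.73 (0.301). In WT neither Ccl6 nor Ccl9 was far from 0, at 0.30 and 0.03.

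Ccl24, an eosinophil attractant made by alternatively activated macrophages, stood at 1.23, 3.90 and 11.7 CPM in KI-BAPN, against 1.18, 1.91, 0.612, 1.06 and 0.524 CPM in KI. In KI-BAPN 5 of 6 libraries were above the highest KI library, a log2 change of 2.16 ± 0.63 (edgeR adjusted p = 0.201). In WT-BAPN it stood at 0.137, 1.81 and 2.36 CPM, against 0.506, 1.59 and 2.58 CPM in WT, and no WT-BAPN library was above the highest WT library. Ccl11, the fibroblast-made eotaxin, stood at 5.57, 7.32 and 18.9 CPM in KI-BAPN, against 4.56, 6.02, 1.36, 5.09 and 8.46 CPM in KI, and at 2.15, 5.86 and 11.4 CPM in WT-BAPN, against 0.829, 7.86 and 32.7 CPM in WT, with overlap in both genotypes. The membrane-bound chemokines, which hold leukocytes on the surface that makes them, had their peaks in KI-BAPN. Cxcl16 stood at 10.4, 16.6 and 79.8 CPM in KI-BAPN, against 8.53, 8.36, 5.32, 12.9 and 6.24 CPM in KI (log2 change 1.68 ± 0.54, edgeR adjusted p = 0.254). In KI-BAPN 5 of 6 libraries were above the highest KI library, and without KI-BAPN replicate 3 the change was 0.93. Cx3cl1, the endothelial ligand of Cx3cr1, had 8.15, 16.8 and 46.8 CPM in KI-BAPN, against 7.31, 8.67, 11.1, 15.2 and 15.3 CPM in KI.

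BAPN in WT called 4 members, all lower: Cxcl13, Ccr7, Ccl19 and Ccl22, genes of lymph nodes and lymphoid aggregates. Over all genes 6.14% were called and 2.70% were called lower. Cxcl13, which draws B cells through Cxcr5, stood at 0.0517, 0.212 and 0.421 CPM in WT-BAPN, against 0, 0.282 and 81.7 CPM in WT. Ccr7, the lymph node homing receptor of T and dendritic cells, stood at 0, 0.369 and 0.741 CPM in WT-BAPN, against 0.0856, 0.154 and 81.6 CPM in WT. In both genes the highest WT value was that of replicate 5, and the other 5 WT libraries lay at 0 to 0.693 CPM for Cxcl13 and 0.0856 to 1.43 CPM for Ccr7.

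Ccl19, a stromal ligand of Ccr7, stood at 0.205, 0.982 and 2.17 CPM in WT-BAPN, against 0.414, 1.02 and 95.5 CPM in WT. Ccl22, the dendritic cell ligand of Ccr4, stood at 0.0517, 0.369 and 0.890 CPM in WT-BAPN, against 0, 0.0960 and 70.6 CPM in WT. Without WT replicate 5 the highest WT values were 2.13 CPM of Ccl19 and 0.324 CPM of Ccl22. The log2 changes with all libraries were -5.90 ± 1.54 for Cxcl13 (SE, edgeR adjusted p = 0.0298), -5.28 ± 1.42 for Ccr7 (0.0331), -3.90 ± 1.11 for Ccl19 (0.0400) and -4.94 ± 1.47 for Ccl22 (0.0476). Without WT replicate 5 they were -0.22 for Cxcl13 (edgeR adjusted p = 0.907), -0.16 for Ccr7 (0.927) and 0.14 for Ccl19 (0.907), and Ccl22 did not pass the filter on counts. In that fit 1 of 36 members passed, Cxcl12, higher, beside 7.85% of all genes. The members' median log2 change was 0.75 without WT replicate 5 and 0.02 with it, beside 0.04 and -0.04 over all genes. No member was called without WT-BAPN replicate 2, 3, 4, 5 or 6, or without the 8 libraries over 50 CPM of mesothelial markers, where 0.00710% of all genes were called.

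Other members had the same single high library. Ccl21a, the lymphatic ligand of Ccr7, stood at 0.576, 9.83 and 25.4 CPM in WT-BAPN, against 1093 CPM in WT replicate 5 and 0.460 to 31.2 CPM in the remaining WT libraries. Its log2 change was -4.03 ± 1.47 with that library (edgeR adjusted p = 0.0959) and 0.56 without it. Ccl5, which T cells and macrophages make, stood at 0.207, 0.895 and 4.50 CPM in WT-BAPN, against 96.0 CPM in WT replicate 5 and 0.942 to 2.85 CPM in the remaining WT libraries, and changed by -3.40 ± 1.11 with it (edgeR adjusted p = 0.0674) and by 0.07 without it. The T cell receptors Cxcr3 and Cxcr6 reached 0.939 and 0.988 CPM in WT-BAPN, against 12.8 and 14.01 CPM in WT replicate 5 and at most 0.462 and 0.324 CPM in the rest of WT. Outside WT, Ccl21a was also high in KI-BAPN replicates 3 and 6, at 299 and 61.9 CPM, against 4.91, 5.24, 0.329, 4.26 and 8.77 CPM in KI. The 6 lymphatic endothelial markers summed to 214 and 256 CPM in those KI-BAPN libraries and 234 CPM in WT replicate 5, against 12.8 to 144 CPM in the other 21. Macrophage marker sums were high there too, at 1639, 1072 and 864 CPM. Both lists have a lowest log2 change of -1.68 for KI against WT on plain water, so they may share a gene. The part of either list in the Ccl21a values was not tested.

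**Figure D5:**
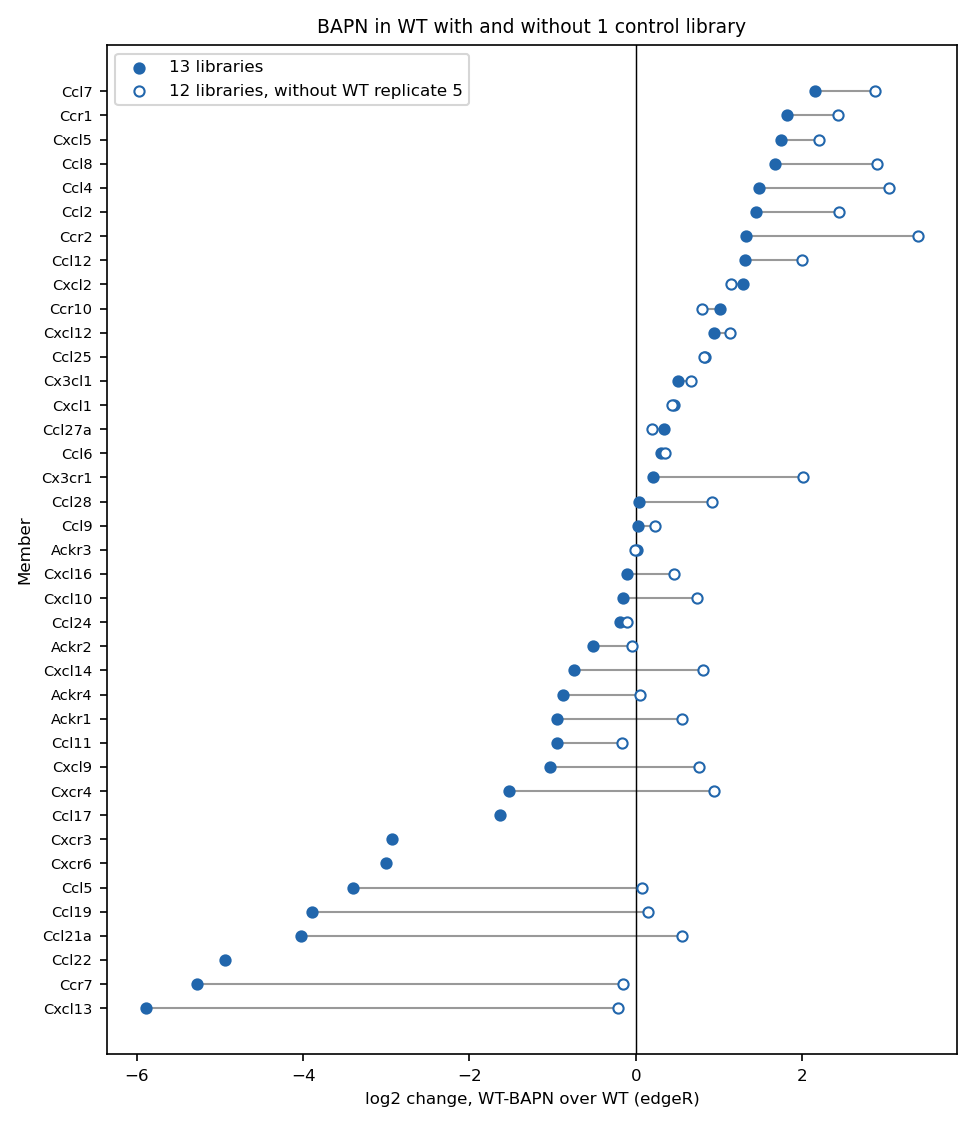
log2 change of WT-BAPN over WT for 39 tested members, from all 13 WT-BAPN and WT libraries (filled) and without WT replicate 5 (open, 35 members). Cxcl13, Ccr7, Ccl19, Ccl21a and Ccl5 lie at -5.90 to -3.40 with that library and at -0.22 to 0.56 without it, and Ccl22, Cxcr6, Cxcr3 and Ccl17 have no open point because they did not pass the filter then.

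Neutrophil attractants that act on Cxcr2 were low and uneven. Cxcl1, a ligand of activated stromal and myeloid cells, stood at 0.716, 1.19 and 3.21 CPM in KI-BAPN, against 0.236, 0.664, 1.60, 1.295 and 1.27 CPM in KI, and at 0.341, 1.79 and 8.25 CPM in WT-BAPN, against 0.506, 1.35 and 6.24 CPM in WT. None of the 3 tested members of this group passed in either genotype, with log2 changes of 0.53 to 2.39 in KI and 0.46 to 1.74 in WT. The 8 neutrophil markers summed to 0.909 to 10.1 CPM in KI-BAPN, 0.282 to 3.49 CPM in KI, 0.827 to 8.005 CPM in WT-BAPN and 0.368 to 9.38 CPM in WT, and 1 of them was at 0 in every WT-BAPN library.

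The interferon-induced ligands of Cxcr3 did not pass either. Cxcl9 stood at 2.08, 3.65 and 31.1 CPM in KI-BAPN, against 3.62, 5.59, 1.83, 2.54 and 14.4 CPM in KI, and at 0.524, 5.94 and 10.2 CPM in WT-BAPN, against 1.22, 4.89 and 56.6 CPM in WT, the last in replicate 5. Cxcl10 stood at 0.155, 2.20 and 12.1 CPM in WT-BAPN, against 0.0856, 0.835 and 12.0 CPM in WT. The start region of Cxcl10, at chr5:92348840-92349139, minus strand, from RefSeq on GRCm38.p6, is shown for contrast with Ccl8 and Ccl12. It holds GAAANNGAAA, 2 matches of the NF-κB consensus and TGANTCA, in that order and without overlap, and no TATAAA.
Cxcl10: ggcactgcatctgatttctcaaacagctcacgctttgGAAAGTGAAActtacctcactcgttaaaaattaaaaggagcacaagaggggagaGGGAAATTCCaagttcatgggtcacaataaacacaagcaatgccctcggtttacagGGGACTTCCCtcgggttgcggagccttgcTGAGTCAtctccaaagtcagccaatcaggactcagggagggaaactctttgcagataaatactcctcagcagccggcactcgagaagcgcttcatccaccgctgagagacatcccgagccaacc

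None of the remaining scavenging receptors passed the edgeR test. Ackr2, which lymphatic endothelium uses to degrade inflammatory CC chemokines, stood at 1.46, 2.11 and 8.16 CPM in KI-BAPN, against 0.511, 1.37, 0.235, 1.62 and 0.480 CPM in KI. In KI-BAPN 5 of 6 libraries were above the highest KI library, a log2 change of 2.10 ± 0.74 (edgeR adjusted p = 0.314). Ackr1, which venular endothelium and erythroid cells carry, had its highest values of 11.7 CPM in WT replicate 5 and 9.96 CPM in KI replicate 2. Ackr4, a scavenger of Ccl19, Ccl21a and Ccl25, was highest in WT replicate 5, at 15.4 CPM, and ran from 0.0470 to 7.07 CPM over the KI-BAPN and KI libraries. Ccl25, the thymic and gut ligand of Ccr9, stood at 1.62, 4.17 and 5.58 CPM in WT-BAPN, against 1.35, 2.01 and 2.91 CPM in WT. In WT-BAPN 5 of 7 libraries were above the highest WT library (log2 change 0.84 ± 0.33, edgeR adjusted p = 0.121). Its exons overlap those of Elavl1 on the opposite strand.

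Between genotypes on plain water, 0 of 40 members were called, beside 0.190% of all genes, and 10 had an unadjusted p under 0.05, beside 16.9% of all genes. DESeq2 called 1, Ackr2, lower, beside 3.45% of all genes, and limma voom 0, beside 1.90%. Ackr2 had 0.511, 1.37, 0.235, 1.62 and 0.480 CPM in KI, against 0.230, 3.90 and 9.21 CPM in WT, the last in replicate 5. The log2 difference was -2.20 ± 0.74 (edgeR adjusted p = 0.144). With a library left out it ran from -2.57 to -1.74, with edgeR adjusted p of 0.122 to 0.286. The smallest p in edgeR belonged to Ccl22, Ccr7, Ccl19 and Ccl5, at -6.77, -6.08, -4.23 and -4.35. These again set KI libraries against WT replicate 5: without it Ccr7 was at -0.96, Ccl19 at -0.19 and Ccl5 at -0.88, and Ccl22 did not pass the filter. The members' median was -1.06 with that library, where 5 of 40 were positive, and -0.23 without it, where 14 of 36 were.

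On BAPN, KI-BAPN against WT-BAPN called 0 of 40 members, beside 0.00703% of all genes. Only Ccl24 had an unadjusted p under 0.05, beside 13.9% of all genes, and DESeq2 and limma voom called 0, beside 0.136% and 0.0211%. Ccl24 stood at 1.23, 3.90 and 11.7 CPM in KI-BAPN, against 0.137, 1.81 and 2.36 CPM in WT-BAPN, a log2 difference of 1.77 ± 0.55 (edgeR adjusted p = 0.243). The median difference of the members was 0.39 and was -0.03 without KI-BAPN replicate 3 and 0.05 without KI-BAPN replicate 6. Cx3cr1 differed by 1.77 with KI-BAPN replicate 3 and by -0.38 with that library left out. The interaction, BAPN in KI minus BAPN in WT, called 0 members, beside 0% of all genes. There were 16 members with an unadjusted p under 0.05, beside 14.8% of all genes, and DESeq2 and limma voom called 0, beside 0.0646% and 0.0281%. The median interaction was 1.63 with 36 of 40 positive, and 0.26 with 25 of 36 positive without WT replicate 5. Ccl21a had the smallest p, at 7.86 ± 2.28 (edgeR adjusted p = 0.280), and was at 3.28 without WT replicate 5. These comparisons share groups of libraries and are not independent of each other.

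The wider pathway was taken from 3 lists chosen with earlier results known. Over all genes 6.14% passed for BAPN in WT, 0.0352% passed in KI and 10.1% had an unadjusted p under 0.05 in KI. Of 8 related genes outside the symbol rule, 1 fell and 0 rose on BAPN in WT and none passed in KI, where 2 had an unadjusted p under 0.05. The medians were -0.16 in WT and 1.13 in KI. The gene that fell was Ccrl2, a non-signalling receptor that presents chemerin: 8.50, 13.2 and 22.2 CPM in WT-BAPN, against 6.75, 33.4 and 37.1 CPM in WT (log2 change -1.19 ± 0.35, edgeR adjusted p = 0.0442). WT replicate 5 had the lowest WT value here, and the call was lost with any library left out but WT-BAPN replicate 1 or 7 or WT replicate 5. Pf4, the platelet and macrophage chemokine Cxcl4, stood at 12.1, 20.4 and 86.0 CPM in KI-BAPN, against 5.38, 10.8, 1.98, 14.2 and 4.58 CPM in KI (log2 change 2.31 ± 0.65, edgeR adjusted p = 0.181). Averaged over both genotypes Ccrl2 fell and Pf4 rose, at -1.04 and 1.60 (edgeR adjusted p = 0.0263 and 0.0382). With a library left out the edgeR adjusted p of Pf4 ran from 0.0275 to 0.0811 and its call held in 14 of 24 cases, and that of Ccrl2 ran from 0.00915 to 0.0556 and held in 22 of 24. The Pf4 call was lost without KI-BAPN replicate 3 or 6, KI replicate 1, 3 or 5, WT-BAPN replicate 5 or WT replicate 1, 3, 4 or 6, and the Ccrl2 call without KI replicate 4 or 5.

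Of 30 genes that carry receptor signals 28 were in the table and tested, and none passed in WT or in KI, with medians of -0.27 and 0.24, and 0 in WT and 2 in KI had an unadjusted p under 0.05, beside 25.0% and 10.1% of all genes. The smallest p belonged to Grk5 and Rgs2 in WT (-0.39 and -1.24), which switch receptors and G proteins off, and Pik3cg, a myeloid lipid kinase, had a log2 change of 2.09 in KI (edgeR adjusted p = 0.447). Of 26 tested genes of NF-κB and its inducers, which drive many inflammatory chemokines, 1 rose and 2 fell on BAPN in WT and none passed in KI, where 5 had an unadjusted p under 0.05. The medians were -0.05 in WT and 0.13 in KI. Nfkbia, the inhibitor IκBα and itself an NF-κB target, fell to 36.7, 68.7 and 83.7 CPM in WT-BAPN, against 86.5, 152 and 172 CPM in WT (log2 change -1.06 ± 0.28, edgeR adjusted p = 0.0319). With a library left out this p reached 0.0703 and the call held in 8 of 13 cases, lost without WT-BAPN replicate 3 or 5 or WT replicate 1, 2 or 6. In KI-BAPN it stood at 40.03, 55.9 and 100.5 CPM, against 117, 45.0, 83.3, 177 and 202 CPM in KI (log2 change -1.04 ± 0.31, edgeR adjusted p = 0.203). Averaged over both genotypes it fell by 1.05 on the log2 scale (edgeR adjusted p = 0.0120), and this call held with each of the 24 libraries left out, but not without the 8 libraries over 50 CPM of mesothelial markers (-1.12, edgeR adjusted p = 0.125). Ikbkg, the IKK scaffold NEMO, rose by 0.53 in WT and the endotoxin receptor Tlr4 fell by 0.78 (edgeR adjusted p = 0.0215 and 0.0237), and each call held in 12 of 13 cases with a library left out, lost without WT replicate 1 for Ikbkg (0.0521) and without WT replicate 4 for Tlr4 (0.0557). The cytokine Il1b was low in all groups, at 0.122 to 1.98 CPM in KI-BAPN, 0 to 0.139 CPM in KI, 0.0517 to 4.05 CPM in WT-BAPN and 0 to 0.400 CPM in WT. Its highest KI value lies within the 0.113 to 0.229 CPM that a count of 0 allows, depending on the library. Il1b rose averaged over both genotypes by 2.88 on the log2 scale (edgeR adjusted p = 0.0366). This call was lost without KI replicate 5 or WT replicate 1, 4 or 6 and held in 15 of the 19 fits that tested the gene. Nfkbib, another IκB, fell by 0.39 in that average (edgeR adjusted p = 0.0378). It held in 12 of 24 cases with a library left out, with an adjusted p of up to 0.0833, and was lost without KI-BAPN replicate 1, 2, 3 or 6, KI replicate 4 or 5, WT-BAPN replicate 3, 4, 5 or 6 or WT replicate 1 or 4.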

How the data were processed

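Poly(A) RNA of 24 aortas was sequenced. The authors deposited a table of read counts per gene, not normalized. Trim Galore, FastQC, HISAT2 and DESeq2 are named in the submitters' processing notes, as are GRCm38 and mm10. The sources used here state no versions, read counter or strand setting. Coordinates are printed as deposited, and their build is open. All 24 count columns were matched to samples through the labels, with 0 per-sample columns unmatched. The table also holds an exonic length per gene, which equalled the union of GENCODE M21 exons for 97.1% of the genes and 59 of the 61 members.

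A model with 1 mean for each group was fitted to the 24 libraries together in edgeR 4.0.16 (R 4.3.3), using TMM factors, filterByExpr by group and the robust quasi-likelihood F test. This tested 14216 genes, and a Benjamini-Hochberg adjusted p under 0.05 over all of them was called. CPM uses the TMM factors and RPKM divides CPM by the deposited length. A count of 0 allows up to 0.113 to 0.229 CPM (3 counts), depending on the library, for counting error only. The labels list the libraries as separate samples, so p-values measure the spread between these samples. The alternatives were RLE factors, 2 other filters, a threshold of 0.10, the replicate number as a block, DESeq2 1.42.0, limma 3.58.1 voom with quality weights, only the groups compared, WT replicate 5 with KI replicates 1, 2 and 5 left out, and each library left out. A fit without the libraries over 50 CPM of mesothelial markers was chosen after seeing the data. The members, the gene lists and the tests were chosen with earlier results of these data known. The text names members called in any comparison, the 5 with the smallest p in each and the most abundant of each role, and further members to complete a role. In the pathway lists it names called genes and the 2 with the smallest p for BAPN in each genotype, and Il1b, Nfkbib and Pf4 from the averaged comparison. The main fit was also run on simulated counts with known changes. These held no library like WT replicate 5, so they do not bear on results that rest on it. No libraries of a group held identical counts (smallest chi-square per degree of freedom 30.8). Start regions, 250 bases before to 50 after the start, came from RefSeq (GRCm38.p6) and matched 46 of the 61 members. Items withheld for evaluation are not reported here by name or drawn. Figures were drawn with matplotlib 3.10.9.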

Additional observations from a re-analysis of the deposited data

Results flagged for a closer look

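The search covered 22 tested members: those called, those with the 5 smallest p in a comparison and the most abundant of each role. Further members named above, such as Cxcr3, were not searched. In each of the 4 groups a library far from the rest was sought on a scale of log2 CPM. This found 10 of 88 member-by-group sets. Chance gives about 1 in 20 for sets not chosen by their values, a rate that does not hold here, since several members were named for results that rest on WT replicate 5. WT replicate 5 accounted for 6 of them, all high against the other 5 WT libraries: Ccl5 at 96.0 CPM, Ccl19 at 95.5 CPM, Cxcl13 at 81.7 CPM, Ccr7 at 81.6 CPM, Ccl22 at 70.6 CPM and Cxcr6 at 14.01 CPM. KI-BAPN replicate 3 was high for 3 members: Cxcl16 at 79.8 CPM, Ccl5 at 9.44 CPM and Ccr7 at 1.42 CPM. KI replicate 3 was low for Ccl21a, at 0.329 CPM, where the other 4 KI libraries lay between 4.26 and 8.77 CPM.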

How the results depend on the processing

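The count of 4 members called for BAPN in WT, where 6.14% of all genes were called, was 7 at a threshold of 0.10 (12.9% of all genes), 1 in DESeq2 (Cxcl12, higher; 10.7%), 4 in limma voom (all higher, none of them the same; 29.7%), 0 with the replicate block (7.20%), 0 with only the groups compared (5.84%), 1 without WT replicate 5 and KI replicates 1, 2 and 5 together (10.52%), 0 without the libraries over 50 CPM of mesothelial markers (0.00710%), and 0 to 4 with a library left out (2.30% to 11.3%). The count of 3 for BAPN averaged over both genotypes, beside 4.14%, was 9 at a threshold of 0.10 (8.38%), 8 in DESeq2 (8.47%), 6 in limma voom (16.8%), 1 with the replicate block (1.08%), 5 without those 4 libraries (10.6%), 0 without the libraries over 50 CPM of mesothelial markers (0%), and 1 to 11 with a library left out (1.59% to 8.36%). Without a filter on counts 6 of 61 members were called for BAPN in WT (5.11% of all genes), all lower. Ccr4, Cxcl17 and Cxcr5 were then among them and Ccl22 was not. The averaged count without a filter was 4 of 61 (3.81%), with Cxcl17 lower and 3 higher. BAPN in KI went to 4 (1.42%) and KI against WT on plain water to 1 (3.45%) in DESeq2, and both were 0 with any library left out, as were the other comparisons.

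For BAPN in WT the sign turned for Cxcl13 in limma voom (0.40) and without the mesothelial libraries (0.23), for Ccl22 in limma voom (1.15) and without the 4 libraries (1.73), and for Ccl19 without the 4 libraries (0.14) and without the mesothelial libraries (0.051). It turned for Ccl5 without the 4 libraries (0.065), and for Ccl21a in limma voom (1.24), without the 4 libraries (0.55) and without the mesothelial libraries (0.94). With a library left out Ccl19 ran from -4.16 to 0.14, Ccl5 from -3.89 to 0.071 and Ccl21a from -4.35 to 0.56. Ccl19 in KI against WT on plain water was 0.32 without the mesothelial libraries, Cxcl13 averaged over both genotypes was 0.17 without the 4 libraries, and Cx3cr1 on BAPN ran from -0.38 to 2.37 with a library left out. The cause was not tested. Same-numbered libraries did not deviate together as a rule (correlations from -0.52 to 0.57, 3 of 22 best with their own number). The labels give no batch, day or litter, so pairing by replicate number can be neither shown nor excluded. Leaving out libraries also leaves fewer samples.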
